A study of Mus musculus with 22 samples.

Results

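The interferon-inducible GTPases described here are 10 mouse genes, Iigp1, Tgtp1, Tgtp2, Ifi47, Igtp, Irgm1, Irgm2, Gbp2, Gbp3 and Gbp6, taken by symbol from 24130 measured genes. They were chosen by their measured levels, above all those in the OvSvK days and in OSK cells grown without vitamin C. Values from those groups are therefore given as a description with no test. Their libraries did enter some of the fits below, and so the errors of other tests. RNA-seq was done on mouse embryonic fibroblasts (MEFs) labelled OG2 transgenic (a line with an Oct4-GFP reporter), at passage P2 and of a mixed strain (1/2 129SVJ, with 3/8 C57B6 and 1/8 CBA), and these features were common to all 20 libraries with counts. The labels date each library from a transfection that had lasted 2 days, and they do not give the vector. OvSvK cells received Oct4-vp16, Sox2-vp16 and Klf4, in which the Oct4 and Sox2 factors were fused to the VP16 activation domain, and were sampled on days 0, 1, 2, 3 and 4. OSK cells received unfused Oct4, Sox2 and Klf4 and were sampled on days 0, 1, 3, 5 and 7, and control cells received GFP and were sampled on days 1, 3, 5 and 7. OSK cells were also grown without bFGF, without Vitamin C, or without the GSK3 inhibitors CHIR-99021 and LiCl, each on days 3 and 7. Every combination of arm and day was 1 library, so no error below is a spread between replicates: the errors given measure how a difference varied from day to day, or how far days departed from a line.

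Immunity-related GTPases (IRGs) and guanylate-binding proteins (GBPs) are a pair of related families of GTP-hydrolysing enzymes that cells make in large amounts after interferon. They assemble on the membranes of vacuoles that hold intracellular parasites and bacteria and help to break those vacuoles open. The response to interferon-gamma runs mainly through DNA sites called GAS, that to type I interferons through interferon-stimulated response elements (ISREs), and IRF1 also binds ISRE-like sites. Iigp1 (Irga6), Tgtp1 and Tgtp2 (the nearly identical copies of Irgb6) and Ifi47 (Irgd) are effector IRGs that load onto the vacuole. Igtp (Irgm3), Irgm1 and Irgm2 are the regulatory IRGs, which sit on the cell's own membranes and keep the effectors inactive there. Gbp2, Gbp3 and Gbp6 are GBPs.

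The promoter sequences are shown as a description. The choice by levels did not use them, but the family is named for its response to interferon. RefSeq promoter windows (GRCm38.p6, 250 bases before to 50 bases after the annotated start) were matched to 8 of the 10 genes, Iigp1 and Gbp6 being without one. Each window was searched on both strands for an ISRE-type run, GAAANNGAAA, and a GAS-type run, TTCNNNGAA. The ISRE-type run was present in 7 of the 8 genes (7 of their 9 windows) and in 3.44% of all 32851 windows. The GAS-type run was present in 4 of the 8, Tgtp1, Tgtp2, Igtp and Irgm2, and in 8.30% of all windows. Ifi47 held neither in its window, which says only that these letters are not there. Excerpts of 60 bases follow, in the direction of the gene, with the matches in capitals.
Tgtp1, chr11:48992295-48992354, minus strand: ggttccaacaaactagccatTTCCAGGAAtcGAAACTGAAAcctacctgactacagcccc
Tgtp2, chr11:49064254-49064313, minus strand: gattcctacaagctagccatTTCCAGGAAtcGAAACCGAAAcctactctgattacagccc
Igtp, chr11:58199491-58199550, plus strand: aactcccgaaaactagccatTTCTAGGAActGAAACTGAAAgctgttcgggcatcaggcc
Irgm2, chr11:58214882-58214941, plus strand: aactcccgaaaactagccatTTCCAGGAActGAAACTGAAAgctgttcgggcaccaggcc
Irgm1, chr11:48871411-48871470, minus strand: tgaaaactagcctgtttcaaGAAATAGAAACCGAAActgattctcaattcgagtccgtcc
Gbp2, chr3:142620584-142620643, plus strand: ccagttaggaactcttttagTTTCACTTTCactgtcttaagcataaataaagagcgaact
Gbp3, chr3:142559979-142560038, plus strand: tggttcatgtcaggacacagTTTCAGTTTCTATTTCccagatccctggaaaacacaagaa

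In Tgtp1, Tgtp2, Igtp and Irgm2 the GAS-type run was followed after 2 bases by the ISRE-type run. That combined run of 21 bases, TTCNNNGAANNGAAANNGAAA, was found in 5 of the 32851 windows (0.0152%): these 4 and Gm12185, a gene on chromosome 11 that is not analysed here. Counted from 1 at the first base of the Tgtp1 run, the Tgtp2 run differed by T17C, the Irgm2 run by T10C and C11T, and the Igtp run by C4T, T10C and C11T. Irgm1 and Gbp3 each held overlapping ISRE-type matches, and in Gbp2 and Gbp3 the matches lay on the opposite strand. Tgtp1 and Tgtp2 are nearly identical copies, and the Igtp and Irgm2 excerpts are nearly the same. Their matches are therefore not independent of each other, and the shares of all windows are no test. These matches are descriptions of sequence, and no binding was measured.

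Counts are RSEM's expected counts. Library depth was 7872277 to 20720718 counts, so that a count of 0 allows a level of up to 0.144 to 0.399 CPM (counts scaled to a common library size), a limit of 3 counts per library that covers counting error only. Levels are CPM scaled by TMM, a correction for library composition, and levels of different genes are compared only in TPM, which is per transcript length. In the coordinates of the authors' deposited table (mm10), Iigp1 lies on chromosome 18 at 60376029 to 60392627, the other 6 IRG genes on chromosome 11, Gbp2 and Gbp3 on chromosome 3 and Gbp6 on chromosome 5. The libraries fell into 2 sets by the share of counts on the ribosomal pseudogene Rpsa-ps10, 3.32 to 7.78% in 8 libraries (OSK days 1 to 7 and all GFP days) and 0.124 to 0.476% in the other 12. OSK against GFP was therefore within the first set from day 1 on, the OvSvK days and the omission arms were each within the second, whereas OvSvK from day 1 was in another set than OSK and GFP, and so were the omission arms. In those comparisons an effect of the arm and one of the library set cannot be told apart. OSK day 0 and then GFP day 1 stood apart in base composition, and results are given without them where they change a call. The summed level of 10 fibroblast markers was 5172 to 50843 CPM across OSK days and 29214 to 39119 CPM in GFP. In bulk RNA, fewer cells of a type and less RNA per cell cannot be told apart.

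In OvSvK cells the summed level of the GTPases was low on days 0 and 1, mostly from Irgm1, and high on days 3 and 4. It was 51.6 CPM on day 0, 54.6 on day 1, 703 on day 2, 4156 on day 3 and 3490 on day 4. In OSK cells the sum was 56.6 CPM on day 0, 92.5 on day 1, 987 on day 3, 1148 on day 5 and 1405 on day 7. In GFP cells it was 91.3, 311, 338 and 376 CPM on days 1, 3, 5 and 7. The sums of the 3 arms therefore lay close together on day 1 and apart by day 3, in the order OvSvK, OSK, GFP. Single genes spread further on day 1, some on few counts. Ratios of OvSvK to GFP were then 0.188 to 7.18 over the 9 genes with a ratio. The plot of levels by day shows each gene. As a share of all transcripts in TPM, the 10 genes made up 0.467% on OvSvK day 3, 0.139% on OSK day 7 and 0.0361% on GFP day 7.

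**Figure D1:**
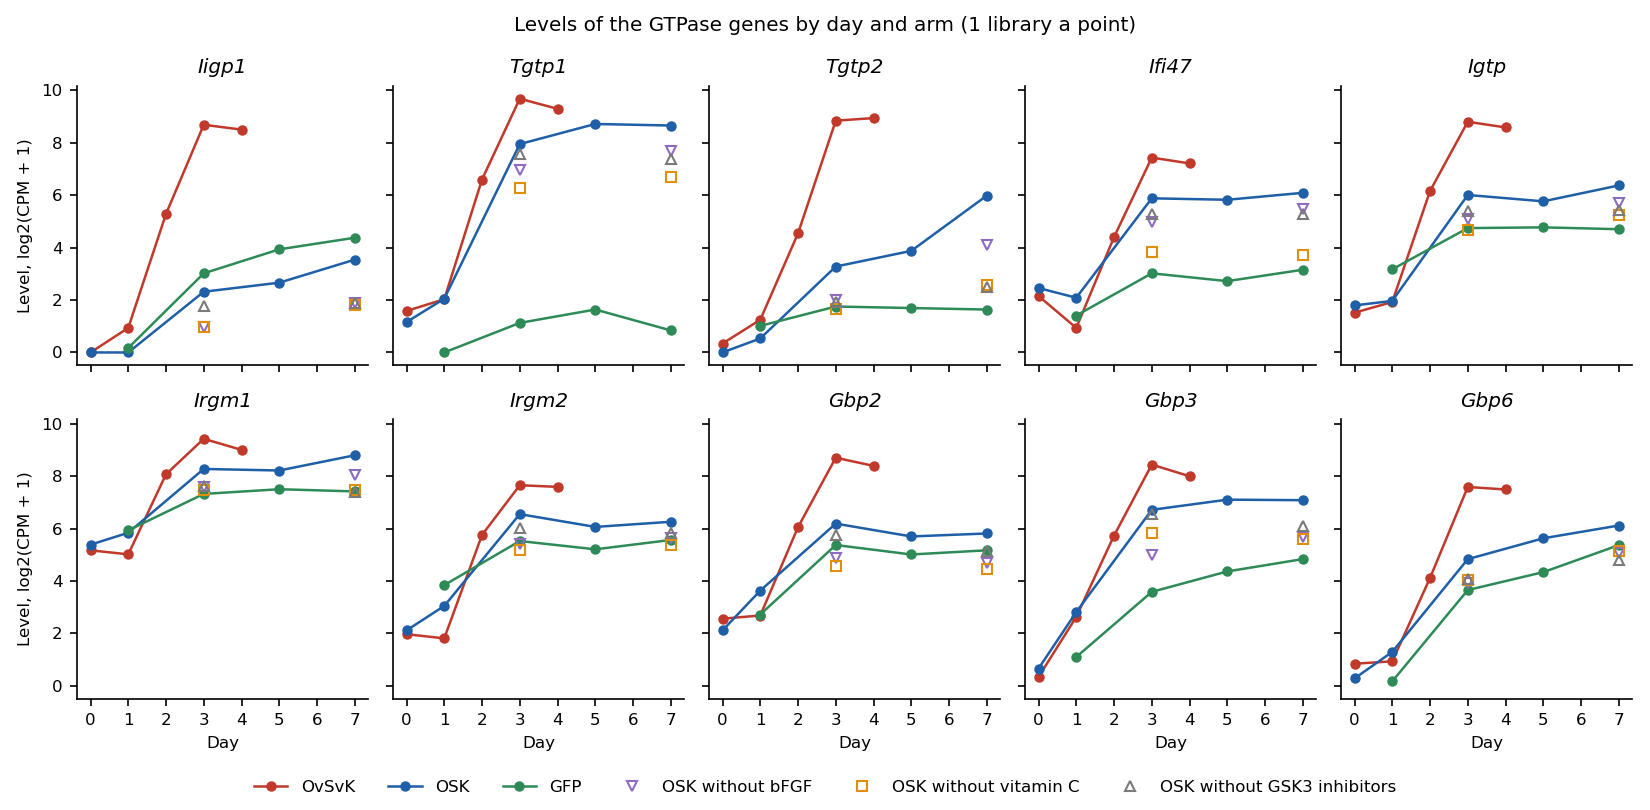
Level of each GTPase gene as log2(CPM + 1) against day; lines join the OvSvK, OSK and GFP libraries and open symbols are the OSK omission arms, with 1 library per point. All 10 genes are highest in OvSvK on day 3 or 4, Tgtp1 stays at 2.11 CPM or below in GFP, and from day 3 on Iigp1 is the gene for which GFP lies above OSK.

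The make-up of the family also differed between arms. On OvSvK day 3 the order in TPM was Irgm1 988, Tgtp1 814, Igtp 621, Gbp2 463, Tgtp2 456, Iigp1 389, Gbp3 367, Ifi47 292, Irgm2 160.5 and Gbp6 123. Neighbours in that order, such as Gbp2 and Tgtp2, differed by little and no replicate spread is available to part them. On OSK day 7 Irgm1 (515 TPM) and Tgtp1 (347 TPM) stood well above Gbp3 (123 TPM), the next gene, and Iigp1 was last at 8.62 TPM. On GFP day 7 Irgm1 alone was prominent at 200.3 TPM, the other 9 genes being at 0.65 (Tgtp1) to 31.3 TPM (Gbp2). Irgm1 thus led in all 3 of these libraries, while Tgtp1 was the second in OvSvK and OSK and the last in GFP.

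Among the effectors in OvSvK, Iigp1 was at 0 CPM on day 0, 0.915 on day 1, 38.1 on day 2, 412 on day 3 and 362 on day 4. Tgtp1 was at 1.99, 3.09, 96.0, 822 and 628 CPM on the same days. Tgtp2 was at 0.266, 1.37, 22.3, 459 and 491 CPM. For each of these genes days 0 and 1 were low, day 2 intermediate and days 3 and 4 high, with no overlap. Ifi47, the other effector, was at 3.46, 0.915, 20.1, 172 and 147 CPM. The ratio of day 2 to day 1 was 41.6 for Iigp1 and 21.98 for Ifi47.

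The regulators started from different levels. Irgm1, whose loss leaves mice unable to control several intracellular bacteria, was already at 35.1 CPM on OvSvK day 0 and was at 31.4, 269, 689 and 513 CPM on days 1 to 4. Igtp was at 1.86, 2.80, 70.5, 446 and 384 CPM, and Irgm2 at 2.93, 2.52, 53.2, 200.9 and 192 CPM. Irgm1 was the earliest in relative terms, with 39.0% of its day 3 level on day 2, and Tgtp2 the latest, with 4.87%. The GBPs Gbp2 (4.92, 5.43, 65.6, 417 and 336 CPM), Gbp3 (0.266, 5.20, 52.2, 347 and 255 CPM) and Gbp6 (0.798, 0.915, 16.4, 192 and 179 CPM) had the same shape. On day 1 Gbp3 was above its day 0 level, on 2 counts on day 0 against 91 (ratio 19.6, 95% counting interval 5.26 to 164).

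Between 2 single libraries a gene was counted as higher or lower when it differed 2-fold with at least 5 CPM in 1 of both. Shares given as of all genes for such pairs are of the genes that reached 5 CPM. By that rule 10 of 10 genes were higher on day 2 than on day 1 (2.96% of all genes were), with ratios of 8.55 to 41.6 and a median of 19.5. From day 2 to day 3 all 10 were again higher (2.76% of all genes), by 2.56-fold to 20.5-fold, and from day 3 to day 4 none was (1.88% of all genes), the ratios being 0.735 to 1.07. Only 3 of the 10 (Irgm1, Gbp2 and Gbp3) reached 5 CPM on day 0 or 1, and 1 of those 3, Gbp3, was higher on day 1 than on day 0 (14.9% of the 11169 genes that reached it). A line fitted over the 5 days gave slopes of 1.26 (Irgm1, SE 0.27) to 3.28 (Iigp1, SE 0.64) log2 units per day, at the 98.22nd to 99.99th percentile of 13848 genes; their median was 2.44. These values chose the genes, so nothing further is read from them.

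Against OSK on the same day the GTPases differed late. On day 3 all 10 were 2-fold higher in OvSvK than in OSK (11.9% of all genes), with a median ratio of 4.56. The ratio was 103 for Iigp1 (counting interval 75.2 to 146) and 52.8 for Tgtp2 (42.5 to 66.3), then 7.03 for Igtp, 6.96 for Gbp6 and 5.78 for Gbp2, and 2.16 to 3.33 for Tgtp1, Gbp3, Ifi47, Irgm1 and Irgm2. On day 1 none was 2-fold higher (15.8% of all genes) and 2, Irgm2 and Gbp2, were 2-fold lower (7.66% of all genes), out of the 4 that reached 5 CPM. At the last days sampled, OvSvK day 4 and OSK day 7, 7 of 10 were 2-fold higher in OvSvK (10.6% of all genes), with ratios of 1.15 to 34.0. Against GFP on day 3 all 10 were 2-fold higher (22.4% of all genes), the ratios being 4.32 to 693.

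OSK without the VP16 fusions was compared with GFP on days 1, 3, 5 and 7 to give the levels of the same genes under the unfused factors. Of the 10 GTPases 6 were called (30.7% of 12680 genes were): 5 were higher in OSK (Tgtp1, Gbp3, Ifi47, Gbp6 and Gbp2; 16.8% of all genes were higher), 1 was lower (Iigp1) and 4 did not pass edgeR's quasi-likelihood test at an adjusted p of 0.05. All 10 passed the filter on low counts in this fit and in the others below. The OSK libraries of days 3 and 7 are also those that the vitamin C arm is set against. That arm took part in the choice of genes, and genes chosen as low in it can come out high in those OSK libraries. The calls are therefore not independent of the choice. The median difference over the 10 genes was 1.06 log2 units, against 0.05 over all genes tested. In the same fit 7 of 10 fibroblast markers were lower in OSK (1769 of 12680 genes were), with a median of -2.93, and their part in the GTPase differences was not tested.

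Tgtp1 had the largest difference of the 10. In OSK it was at 3.14 CPM on day 1, 247 on day 3, 421 on day 5 and 403 on day 7. In GFP it was at 0, 1.19, 2.11 and 0.792 CPM on those days. From day 3 the arms were separated by a ratio of 208 (counting interval 113 to 435), 199 (124 to 342) and 509.6 (268 to 1115), and on day 1 OSK was at least 8.21-fold higher than the limit for the 0 in GFP. The fitted difference was 8.09 log2 units (SE 0.37, adjusted p = 0.000593), with OSK higher on 4 of 4 days.

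Gbp3 was at 6.05, 104, 137 and 135 CPM in OSK and at 1.15, 11.0, 19.6 and 27.6 CPM in GFP on days 1, 3, 5 and 7. OSK was higher on all 4 days, by 4.89-fold to 9.47-fold, and the fitted difference was 2.72 log2 units (SE 0.22, adjusted p = 0.00169). Ifi47 was at 3.25, 58.0, 55.8 and 67.2 CPM in OSK and at 1.66, 7.11, 5.60 and 7.92 CPM in GFP. Its ratio was 1.96 on day 1 and 8.15 to 9.97 afterwards, with a fitted difference of 2.77 (SE 0.42, adjusted p = 0.00797). Gbp2, which is among the GBPs that collect on Toxoplasma vacuoles, was at 11.4, 72.1, 51.1 and 55.3 CPM in OSK and at 5.61, 40.5, 31.3 and 35.1 CPM in GFP. Gbp6 was at 1.46, 27.6, 48.6 and 68.6 CPM in OSK and at 0.127, 11.6, 19.3 and 40.4 CPM in GFP. Both were higher in OSK on 4 of 4 days, Gbp6 on day 1 on only 13 counts against 1, with fitted differences of 0.81 for Gbp2 (SE 0.15, adjusted p = 0.0133) and 1.30 for Gbp6 (SE 0.31, adjusted p = 0.0278). The Gbp6 measurement is uncertain, because the authors' table gives that symbol to a gene identifier that GENCODE M21 names Gm43302, and 72.0% of its 45-base words occur in other genes, 65.8% in Gbp10.

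Iigp1 was the exception in direction. In OSK it was at 0, 3.98, 5.33 and 10.6 CPM on days 1, 3, 5 and 7, and in GFP at 0.127, 7.11, 14.3 and 19.8 CPM. The GFP library was higher on each of days 3, 5 and 7, with OSK at 0.560, 0.373 and 0.538 of it. The fitted difference was -1.08 log2 units (SE 0.31, adjusted p = 0.0473), a call that ended when any of days 3, 5 or 7 was left out, when low counts were not filtered, and in limma on TPM (adjusted p over all alternatives 0.0129 to 0.27). None of the 45-base words of Iigp1 occurs in another gene.

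The genes that did not pass were Tgtp2 (2.48, SE 0.92, adjusted p = 0.0911), Irgm1 (0.76, SE 0.27, adjusted p = 0.0814), Igtp (0.80, SE 0.53, adjusted p = 0.292) and Irgm2 (0.50, SE 0.35, adjusted p = 0.311). On day 1 all 4 were lower in OSK than in GFP, and on days 3, 5 and 7 all 4 were higher. The day 1 counting intervals of the arms lay apart for Igtp and Irgm2. They overlapped for Irgm1 (51.7 to 61.6 CPM in OSK, 54.9 to 65.9 in GFP) and for Tgtp2 (4 counts against 8). Irgm1 was at 56.5, 309.6, 297 and 445 CPM in OSK and at 60.3, 159.5, 181 and 170.4 CPM in GFP. Igtp was at 2.91, 63.4, 53.4 and 81.9 CPM in OSK and at 8.03, 25.8, 26.4 and 25.1 CPM in GFP. Irgm2 was at 7.29, 93.0, 66.0 and 75.8 CPM in OSK and at 13.4, 45.1, 36.1 and 46.5 CPM in GFP. For all 3 regulators the GFP levels from day 3 on lay close together, and every OSK library from day 3 on was above every GFP library. Tgtp2 was at 0.448, 8.70, 13.7 and 62.3 CPM in OSK and stayed at 1.02 to 2.37 CPM in GFP. Without day 1 all 10 genes were called, 9 higher and 1 lower, whereas without day 3 or without day 5 only Tgtp1 and Gbp3 were, so the count rested on which days were included.

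**Figure D2:**
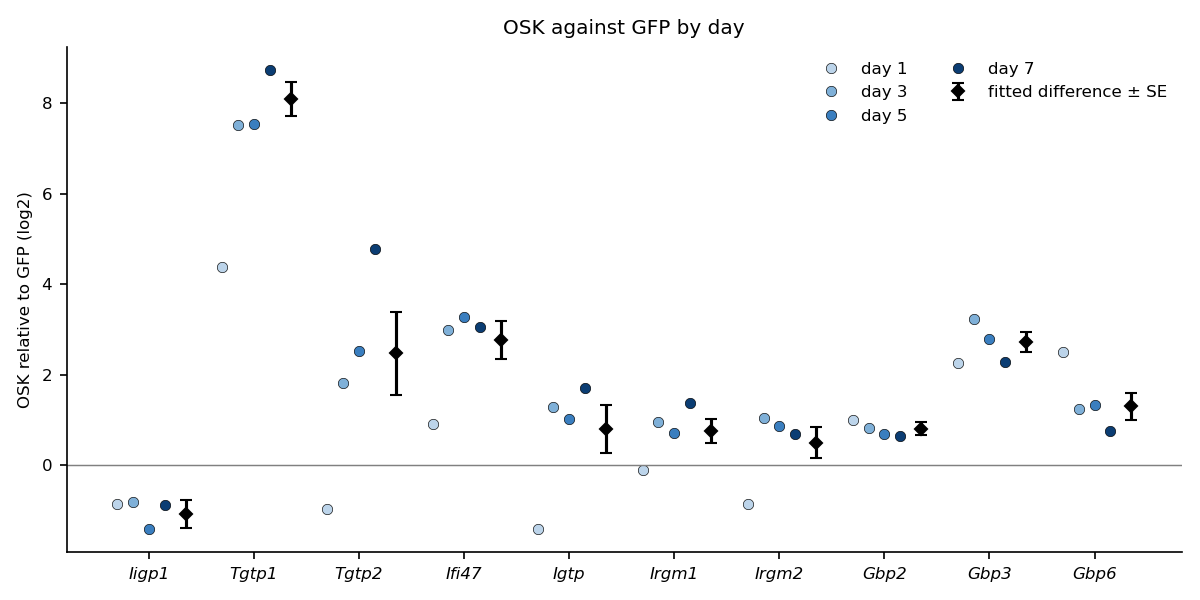
Difference of OSK from GFP in log2 units for each gene, by day (circles, 1 library per arm, prior count 2) and as the fitted difference over the 4 days with its SE (diamonds). Tgtp1 is at 8.09 and Iigp1 at -1.08, and the day 1 circles of Tgtp2, Igtp, Irgm1 and Irgm2 lie below 0 while their later circles lie above it. On day 1 the counting intervals of OSK and GFP overlapped for Tgtp2 and Irgm1.

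Over time within OSK, 7 of 10 genes rose (21.5% of 13848 genes were called higher): Tgtp1 by 1.26 log2 units per day (SE 0.42, adjusted p = 0.031), Tgtp2 by 1.0997 (SE 0.20, adjusted p = 0.00228), Gbp6 by 1.01 (SE 0.29, adjusted p = 0.0169), Gbp3 by 0.96, Iigp1 by 0.85, Igtp by 0.73 and Irgm1 by 0.50. Ifi47 (0.62), Irgm2 (0.62) and Gbp2 (0.49) did not pass. The median slope was 0.79, against -0.01 over all genes. These slopes, and the GFP slopes and slope differences below, came from 1 fit of 14 libraries with a shared spread. That fit held the OvSvK days, which took part in the choice of genes. How far the OvSvK days departed from a line therefore entered the errors, and the calls are not independent of the choice. The steps were uneven: from day 1 to day 3 all 9 genes with a ratio were 2-fold higher (13.4% of all genes), by 5.48-fold to 78.6-fold, from day 3 to day 5 none was (3.03% of all genes), and from day 5 to day 7 1 was (4.08% of all genes), Tgtp2, from 13.7 to 62.3 CPM. OSK day 0 lies in the other library set than the later OSK days. Without OSK day 0, or without OSK day 1, only Tgtp2 was called, and without OSK day 5 Tgtp2, Irgm1 and Gbp6 were. Over the same days 7 of 10 fibroblast markers fell (24.0% of all genes did) and 1 rose (21.5% of all genes). The 5 pluripotent cell markers that passed the filter, of 8, rose.

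In GFP cells no gene of the 10 was called over time (4.80% of all genes were, in either direction) with edgeR, 1 had an unadjusted p under 0.05, and DESeq2 called 1, Gbp6. The GFP slopes were 0.13 to 0.83 log2 units per day, and the 8 genes that reached 5 CPM were all 2-fold higher on day 3 than on day 1 (18.0% of all genes). The difference between the OSK and GFP slopes was called for none of the 10 with edgeR (6.22% of all genes), with 1 at an unadjusted p under 0.05, and for 1, Tgtp2, with DESeq2, the differences being 0.10 to 0.98 log2 units per day. That these differences missed the threshold does not show that the arms had equal slopes.

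Tgtp1 and Tgtp2 lie close together on chromosome 11 and encode nearly the same protein, and the split of reads between them differed by arm. Of the counts assigned to the pair, Tgtp1 held 88.2% (Wilson 95% interval 65.7 to 96.7) on OvSvK day 0, 69.2% on day 1, 81.1% on day 2, 64.1% (63.5 to 64.8) on day 3 and 56.1% (55.3 to 56.9) on day 4. In OSK the share was 100%, 87.5%, 96.6%, 96.8% and 86.6% on days 0, 1, 3, 5 and 7, and in the omission arms it was 92.7 to 98.5%. In GFP, on only 8 to 35 counts, it was 0 to 48.6%. From day 3 on, then, every OSK and omission library gave a larger share to Tgtp1 than OvSvK days 3 and 4 or GFP did. RSEM divides reads that fit several genes, and 80.4% of the 45-base words of Tgtp1 and 86.7% of those of Tgtp2 occur in the other, so the split is less certain than the sum. The sum was 5.02-fold higher on day 3 in OvSvK than in OSK, and in OSK 3.52-fold (counting interval 1.59 to 8.84), 71.8-fold, 99.8-fold and 160.4-fold higher than in GFP on days 1, 3, 5 and 7.

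**Figure D3:**
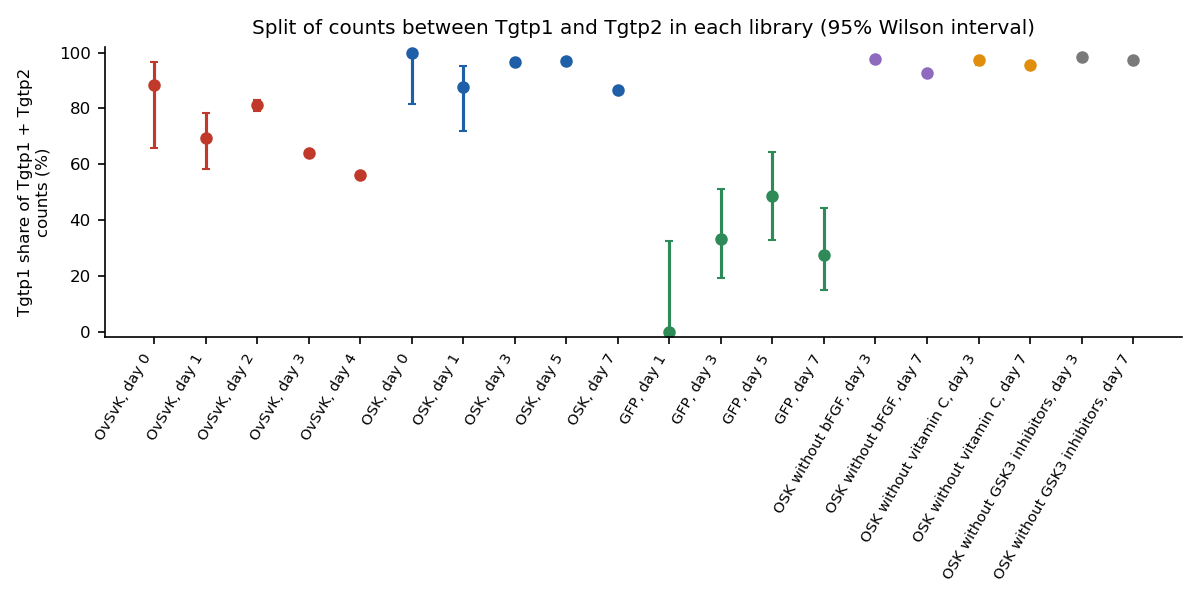
Share of the counts of the Tgtp1 and Tgtp2 pair that RSEM assigned to Tgtp1 in each of 20 libraries, in percent with 95% Wilson intervals that cover counting error only. OvSvK days 3 and 4 sit at 64.1% and 56.1%, OSK and omission libraries from day 3 on at 86.6 to 98.5%, and GFP at 0 to 48.6% with wide intervals.

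The omission arms give the levels of the GTPases in OSK cells grown in other media. Each is set against the same OSK libraries of days 3 and 7, which the comparisons therefore share. The vitamin C arm, which took part in the choice of genes, is set against those OSK libraries too and also entered the fit below. Genes chosen that way can come out lower in the other omission arms as well. The calls below are therefore not independent of the choice. Without bFGF, a growth factor that signals through ERK, 9 of 10 genes were lower (7.77% of 14191 genes were) and the median difference was -0.996 log2 units, against 7 of 10 lower (13.3% of all genes) and a median of -0.78 without the GSK3 inhibitors. No gene of the 10 was called higher in either (4.71% and 9.97% of all genes were). Markers of cell state moved in the same fit. Without bFGF 5 of 10 fibroblast markers were higher (median 1.11) and 4 of the 6 pluripotent cell markers that passed the filter were lower (median -2.97). Without the GSK3 inhibitors the counts were again 5 of 10 higher (median 0.75) and 4 of 6 lower (median -2.61). Their part in the lower GTPase levels was not tested.

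Without bFGF, Gbp2 was at 28.7 CPM on day 3 and 25.0 on day 7, against 72.1 and 55.3 in OSK. Gbp3 was at 30.9 and 51.0 CPM, against 104 and 135. Both omission libraries lay below both OSK libraries for each gene, and the fitted differences were -1.23 (SE 0.21, adjusted p = 0.00924) and -1.55 (SE 0.28, adjusted p = 0.0102). Iigp1 (-1.98, SE 0.43, adjusted p = 0.0185) and Tgtp2 (-1.79, SE 0.43, adjusted p = 0.0278) had the largest differences, from low levels of 0.955 and 2.74 CPM for Iigp1 and 2.99 and 16.1 CPM for Tgtp2. Gbp6 (-1.01), Tgtp1 (-0.98), Irgm2 (-0.89), Igtp (-0.81) and Ifi47 (-0.76) were lower with adjusted p-values of 0.0173 to 0.0397, and Irgm1 (-0.71, adjusted p = 0.0681) was not called. Of these, Tgtp1 was at 125 and 203 CPM, Irgm1 at 194 and 264, Igtp at 33.2 and 50.5, Irgm2 at 41.9 and 48.5, Ifi47 at 30.7 and 43.4, and Gbp6 at 14.1 and 33.0 CPM, each below OSK of the same day. When the trend with the genes' GC content was removed, a step added after seeing the data, 2 of the 9 calls were left, Gbp2 and Gbp3.

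Without the GSK3 inhibitors, which stabilise beta-catenin, Tgtp2 was at 2.80 CPM on day 3 and 4.70 on day 7, against 8.70 and 62.3 in OSK. Tgtp1 was at 188 and 168 CPM, against 247 and 403. Irgm1 was at 194 and 168 CPM, against 309.6 and 445. For Tgtp1 and Irgm1 both omission libraries were below both OSK libraries, with the wider gap on day 7. The fitted differences were -2.77 for Tgtp2 (SE 0.47, adjusted p = 0.00512), -1.03 for Irgm1 (SE 0.23, adjusted p = 0.013) and -0.80 for Tgtp1 (SE 0.24, adjusted p = 0.0401). Gbp6 (-1.07), Igtp (-0.76), Ifi47 (-0.72) and Iigp1 (-1.33) were also lower, whereas Gbp2 (-0.54), Gbp3 (-0.54) and Irgm2 (-0.48) were not called. Igtp was at 41.6 and 42.4 CPM, Ifi47 at 37.6 and 37.7, Gbp2 at 53.7 and 34.2, and Irgm2 at 64.7 and 55.4 CPM, again below OSK of the same day. With the GC trend removed 2 calls were left, Tgtp2 and Igtp, and with the vitamin C arm left out of the fit 3 were.

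Between the bFGF and GSK3 inhibitor arms, which lie in the same set of libraries, no GTPase was called with edgeR (3.08% of all genes were), 2 had an unadjusted p under 0.05, and DESeq2 called 1, Gbp3. Gbp3 was at 30.9 and 51.0 CPM without bFGF and at 94.0 and 68.0 CPM without the inhibitors (difference -1.01, SE 0.28, adjusted p = 0.0836), with no overlap. The other differences were -0.69 to 0.97 log2 units.

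The vitamin C arm, which took part in the choice of genes, is given as a description. Without vitamin C, a cofactor of the TET and Jumonji-class dioxygenases, the summed level of the GTPases was 423 CPM on day 3 and 481 on day 7, against 987 and 1405 in OSK. Tgtp1 was at 75.5 and 103 CPM, Ifi47 at 13.1 and 12.3, Igtp at 24.2 and 37.0, Irgm1 at 177 and 178, Gbp2 at 23.0 and 21.02, and Gbp3 at 56.8 and 47.7 CPM. All of these lay below both OSK libraries of days 3 and 7. By the 2-fold rule 6 of the 9 genes at 5 CPM were lower on day 3 (1.76% of all genes) and 9 of 10 on day 7 (3.17% of all genes). The fitted differences were -0.94 (Gbp6) to -3.03 (Tgtp2) with a median of -1.39, against 0.01 over all genes.

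Set beside the other omission arms, which share its set of libraries, Ifi47 was the one gene at least 2-fold lower without vitamin C in each of the 4 pairs. Tgtp1 and Gbp2 were also below both other arms on both days, by less than 2-fold in some of the pairs. Igtp and Irgm2 were below them by less than 2-fold in all 4. Iigp1 was at 0.944 and 2.49 CPM without vitamin C. It was at 0.955 and 2.74 CPM without bFGF and at 2.43 and 2.70 CPM without the inhibitors, with overlapping counting intervals on each day. The Ifi47 level was 0.427 of that without bFGF on day 3 and 0.283 on day 7, and 0.348 and 0.326 of that without the GSK3 inhibitors. By the 2-fold rule Ifi47 was the only gene lower against the bFGF arm on day 3 (3.41% of all genes), and with Tgtp2 it made 2 on day 7 (3.73%). Against the GSK3 inhibitor arm 3 genes were lower on day 3, Tgtp1, Ifi47 and Gbp2 (3.96% of all genes), and 1, Ifi47, on day 7 (6.40%). Gbp3 ran the other way against the bFGF arm on day 3, at 1.84 of its level. Gbp6 was also above the bFGF arm on both days (15.3 against 14.1 CPM, then 34.2 against 33.0). On day 7 Gbp6 (34.2 against 26.7 CPM), Irgm1 (178 against 168) and Tgtp2 (4.90 against 4.70) were above the GSK3 inhibitor arm. Among these pairs of Gbp6, Irgm1 and Tgtp2, counting intervals lay apart only for Gbp6 against the GSK3 inhibitor arm. These pairs have 1 library a side and no test.

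**Figure D4:**
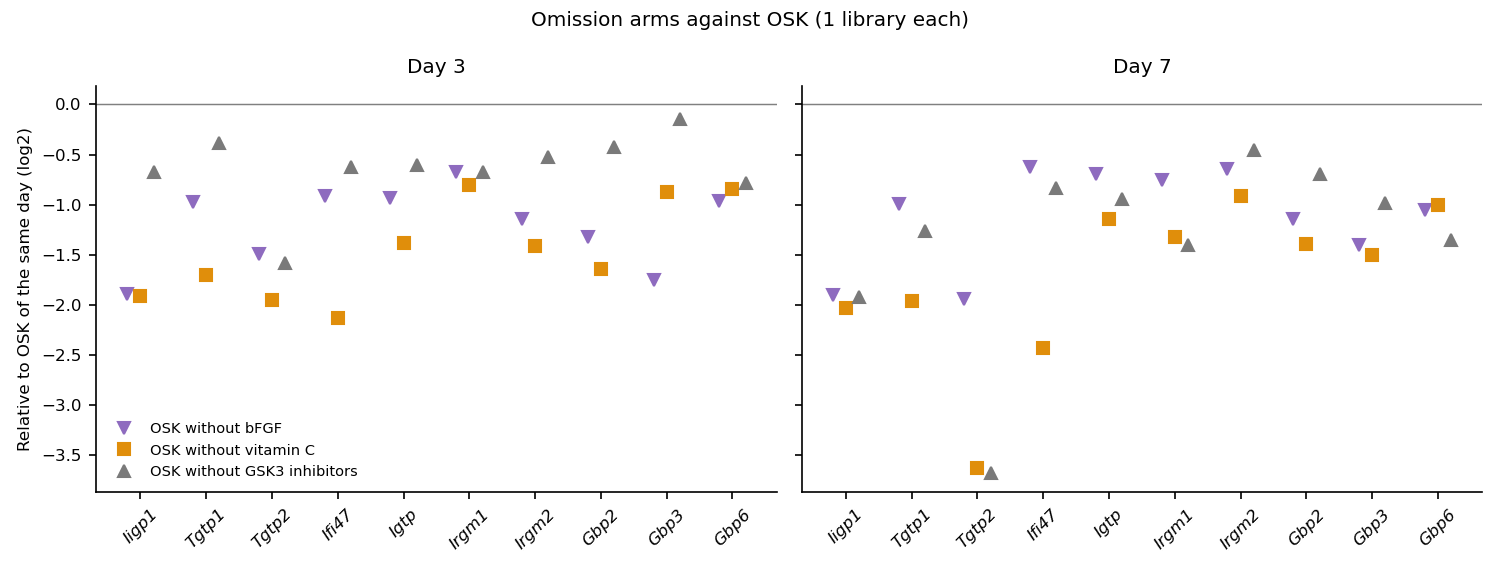
Level of each GTPase gene in the 3 omission arms relative to OSK of the same day, in log2 units with a prior count of 2, on day 3 (left) and day 7 (right), 1 library per symbol. All symbols lie below 0, and on day 7 Tgtp2 is lowest in the arms without vitamin C and without GSK3 inhibitors.

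The rest of the interferon pathway was read from lists of genes, with counts of those at 5 CPM or more. Among the ligands, Ifng, the gene of interferon-gamma, had 0, 4, 20, 29 and 6 counts on OvSvK days 0 to 4, which is 2.02 CPM (counting interval 1.35 to 2.90) at its highest on day 3. It had 0, 0, 1, 0 and 9 counts in OSK, 0 in all GFP libraries (which allows up to 0.264 to 0.382 CPM), and 0 to 3 in the omission arms. Ifnb1 had 1 count in 1 of 20 libraries, Ifna2 1 count in each of 2 and Ifna4 1 count in 1, and the other 6 type I and lambda interferon genes measured had none. The summed level of 12 T and NK cell markers, cells that make interferon-gamma, was 0.798 to 9.50 CPM in OvSvK, with the highest value on day 4, 0.508 to 23.6 CPM in OSK and 30.4 to 49.1 CPM without GSK3 inhibitors. Most of the sum on OSK day 7 and without GSK3 inhibitors was a single gene, Cd3g, at 16.4 CPM on OSK day 7 (273 counts) and at 29.3 and 46.4 CPM without the inhibitors (398 and 602 counts), while Cd3e, Ncr1, Nkg7, Gzmb and Prf1 had 0 to 2 counts in every library. On OvSvK day 3, 4 of the 12 had any count, with Cd2 at 52, Cd4 at 18, Cd8a at 8 and Klrb1c at 5 counts, while Cd3e, Cd3d, Cd3g, Ncr1, Nkg7, Gzmb, Prf1 and Il2rb were at 0. Macrophage markers summed to 8.92 to 52.1 CPM in OvSvK, highest on day 0, 14.1 to 188 CPM in OSK, also highest on day 0, and 39.7 to 84.2 CPM in GFP. The part of either cell type in the GTPase levels was not tested.

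Of the 5 interferon receptor genes at 5 CPM, none was 2-fold higher or lower in OvSvK than in OSK on day 3, and against GFP 3 of 6 were lower in OSK with edgeR (1769 of 12680 genes were), Ifngr2 (-0.86, adjusted p = 0.00861), Il10rb (-0.96, adjusted p = 0.0346) and Ifnar1 (-0.69, adjusted p = 0.0364). Of 17 signalling genes, 6 were 2-fold higher in OvSvK than in OSK on day 3 (11.9% of all genes were) and 1 was lower (9.92%). Irf1, a transcription factor of the interferon-gamma response, was at 149 CPM against 33.6, and Nlrc5, the activator of MHC class I genes, at 173 against 22.6. Batf2 (12.4 against 0.210 CPM), Socs1 (8.83 against 0.524), Irf8 (5.70 against 0.419) and Ptpn2 (34.0 against 13.6) were the others, and Usp18, a brake on type I signalling, was lower at 30.5 against 120.4 CPM.

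Target genes are given by class for the same pair of libraries, as a description of those that reached 5 CPM in either. Of 14 other members of the GTPase families, 11 were 2-fold higher in OvSvK than in OSK on day 3 (11.9% of all genes were). Their median was 2.71 log2 units over the 14. Of the 14, 10 had reached 5 CPM in OSK too, among them Gbp4 (359.7 against 6.19 CPM), Gbp7 (401 against 47.3) and Gvin1 (444 against 41.6). Of 16 targets that respond mainly to interferon-gamma, 8 reached 5 CPM and these 8 were higher (11.9% of all genes were), with a median of 2.21. The filter favours that direction, since Cxcl10 (7.65 against 0.105 CPM), Cd274 (18.7 against 3.15) and Psmb9 reached 5 CPM in OvSvK alone. Among the 8 were the immunoproteasome genes Psmb9 (40.2 against 4.19 CPM) and Psmb8 (80.6 against 13.1) and the peptide transporter gene Tap1 (225 against 59.6). Of 20 targets used as markers of type I interferon, none was higher (11.9% of all genes were) and 4 were lower (9.92%), with a median of -0.32. Oas2 (109 against 365 CPM) and Rsad2 (13.1 against 40.6) were among the lower. All genes had a median of -0.003. Interferon-gamma and type I interferon share many targets, the lists were made with results of these data known, and the set of libraries differs between the arms, so nothing is read from the contrast between classes. Against GFP on day 3, 13 of the 20 type I targets were 2-fold higher in OvSvK (22.4% of all genes were).

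**Figure D5:**
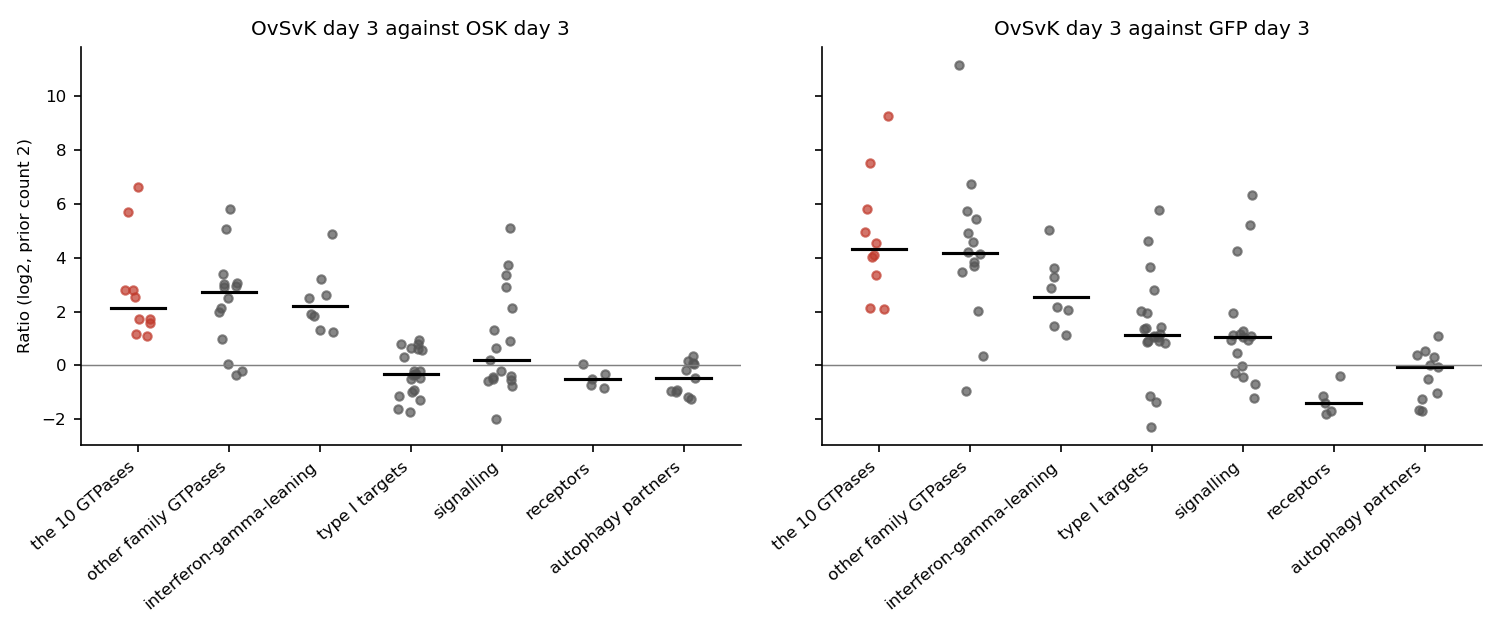
Ratio of OvSvK day 3 to OSK day 3 (left) and to GFP day 3 (right) in log2 units with a prior count of 2, for genes at 5 CPM or more in either library; each point is a gene, the 10 GTPases are red and bars are medians. Against OSK the GTPases, other family members and interferon-gamma-leaning targets have medians of 2.13, 2.71 and 2.21, and type I targets, receptors and autophagy partners lie around or below 0.

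The same lists were read in the fit of OSK against GFP, where 16.8% of the 12680 genes tested were higher and 1769 of them lower with edgeR. The list counts of this fit were not repeated with a day left out, a step that changed the count of the 10 GTPases. Of 20 type I targets 11 were higher and 2 lower (median 1.29), and of 9 other family GTPases that passed the filter 5 were higher (median 1.06). Of the 6 interferon-gamma-leaning targets that passed it 1 was higher, a share no larger than that of all genes. Oas2 (6.62, SE 0.68, adjusted p = 0.00305) and Zbp1, a sensor of Z-form nucleic acid (4.23, SE 0.34, adjusted p = 0.00171), were among the higher, and Ifit3 was lower (-2.57, SE 0.24, adjusted p = 0.00246). Of the other family members Gvin1 had the largest difference named (3.22, SE 0.23, adjusted p = 0.00112), followed by Gbp7 (2.03) and Gbp9 (1.56). Over time in OSK 15 of 20 type I targets, 9 of 14 other family GTPases and 5 of 11 interferon-gamma-leaning targets rose (21.5% of all genes did). Without OSK day 0 these counts were 0 of 20, 1 of 14 and 3 of 11 (9.72% of all genes). Without OSK day 1 they were 4 of 20, 4 of 14 and 5 of 12 (19.9% of all genes). Irgq, an IRG-like gene, fell (-0.32 per day, adjusted p = 0.000586). Without bFGF 3 of 14 other family GTPases and 7 of 20 type I targets were lower (7.77% of all genes were). Without GSK3 inhibitors 3 of 14 and 2 of 20 were lower (13.3% of all genes) and 4 type I targets were higher (9.97%), so the count of lower type I targets was no larger than the background.

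Across the 20 libraries the 45 pairwise correlations of log2(CPM + 1) among the 10 GTPases were 0.482 to 0.974, with a median of 0.876. This is a description only, since the libraries share arms and the genes were chosen by their levels in these libraries, which favours high correlations. The 8 genes outside the list whose pattern was most like the mean of the 10, among 11223 genes, were Gbp10 (r = 0.957), Gbp2b (0.954), Gbp7 (0.949), Nlrc5 (0.945), Psmb8 (0.940), Parp11 (0.938), Apol6 (0.938) and Gbp9 (0.932). Of these, 4 are GBPs, and Gbp10 shares sequence with Gbp6 as given above. Nlrc5, for example, was at 0.665 CPM on OvSvK day 0 and at 9.01 CPM on GFP day 3, beside the 173 CPM of OvSvK day 3.

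For mouse embryonic stem cells and untreated MEFs only the authors' deposited table gives values, as normalised whole numbers that are scores with no stated unit and, for these cells, from an earlier genome build. In it Irgm1 was at 147 in the stem cells and 882 in MEFs, Gbp2 at 6 and 140, Ifi47 at 0 and 43, and Gbp3 at 5 and 37. Iigp1 (8 and 14), Tgtp1 (16 and 24), Tgtp2 (2 and 17) and Irgm2 (52 and 77) were low in both. Igtp (73 and 16) and Gbp6 (49 and 13) were higher in the stem cells, but also low in both, the median score of each column being 374. On the same scale Iigp1 was at 6174 and Irgm1 at 10312 on OvSvK day 3, so those levels lay above both reference cell types.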

How the data were processed

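Total RNA was sequenced from TruSeq libraries, per the labels' protocols. The authors deposited RSEM expected counts (estimated counts per gene) and TPM for each of 20 libraries, per the file headers, made with RSEM 1.2.4 on mm10, per the submitters' processing notes. The series table that the authors deposited holds 22 columns of whole numbers with the same median and maximum, treated as a score; its mESC and MEF columns come from RSEM 1.1.21 on mm9, per the submitters' processing notes. Aligner settings and strandedness were not given in the sources used here. Symbols came from the series table (12897 genes) or GENCODE M21 (10788), and 445 identifiers had none.

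Expected counts were rounded. edgeR 4.0.16 (R 4.3.3) was fitted over all genes after filterByExpr, with TMM scaling, quasi-likelihood tests and Benjamini-Hochberg adjustment at 0.05; each fit was tested on simulated data. OSK against GFP used 8 libraries with day as a block, the slopes 14 libraries with a line per arm, and the omission arms 8 libraries with day as a block. Single libraries were compared by ratio (prior count 2), with exact 95% counting intervals. Alternatives were DESeq2 1.42.0, upper-quartile scaling, no filter, limma 3.58.1 on log2(TPM + 1), and leaving out days, libraries or arms; GC-trend removal, leaving out OvSvK days and the list counts without OSK day 0 or 1 were added after seeing the data. The 10 genes and all gene lists were chosen with earlier results of these data known. All 10 genes were named in every comparison, and from each list up to 4 genes with the smallest p per comparison; others named in the pairs of single libraries were chosen after their values were seen.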

Additional observations from a re-analysis of the deposited data

How the results depend on the processing

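With 1 library per arm and day, errors come from variation over days, and depth limits Iigp1, Tgtp1 and Tgtp2 in GFP and on days 0 and 1. Over 660 values of single genes under alternatives, 545 kept direction and side of the threshold, 69 lost the call, 25 gained one and 21 changed sign, none of them a called value; the causes were not tested. DESeq2 called 1 gene each for the GFP slope, the slope difference and bFGF against GSK3 inhibitors, where edgeR called 0, and without the filter the last gave 1. In limma on TPM, 5 genes were called without bFGF and 3 without GSK3 inhibitors, and with the GC trend removed 2 each. Leaving out 1 day, library or arm gave 2 to 10 calls for OSK against GFP, 1 to 10 for the OSK slope (1 without OSK day 0 and GFP day 1 together), 3 to 5 without GSK3 inhibitors, 7 without bFGF and 0 to 2 between them. The median OvSvK change per day of log2(CPM + 1) was 2.05, or 1.86 to 2.48 with 1 day left out (the higher without day 4). The median difference without vitamin C, -1.40, stayed between -1.58 and -1.30. The slope difference of Iigp1 was -0.13 in limma, and Gbp6 between the bFGF and GSK3 inhibitor arms was -0.0082 in limma and -0.0668 with the GC trend removed. Without OSK day 0 and GFP day 1 the GFP slopes of Tgtp1, Tgtp2, Igtp and Gbp2 were -0.147, -0.0511, -0.0205 and -0.0613. With 1 library left out, slope differences were -0.36 to 0.48 (Iigp1), -0.11 to 0.57 (Gbp2), -0.0765 to 0.92 (Gbp3), -0.25 to 0.66 (Gbp6), and GFP slopes -0.14 to 0.94 (Tgtp1), -0.0442 to 0.27 (Tgtp2), -0.0135 to 0.43 (Igtp), -0.0544 to 0.60 (Gbp2).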

Other observations

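Autophagy proteins load or restrain the GTPases on membranes: the LC3 and Gabarap lipidation machinery of Atg3, Atg5, Atg7, Atg12 and Atg16l1 is needed for effector IRGs to find the vacuole. On day 3 none of 11 such genes was 2-fold higher in OvSvK than in OSK (11.9% of all genes were), and 2 were lower (9.92% of all genes), Gabarapl1 (43.8 against 97.7 CPM) and Sqstm1, the cargo receptor gene (312 against 739 CPM), with a median of -0.46 log2 units over the 11. These are single libraries from different sets and were not tested. With edgeR, OSK against GFP had 1 of the 11 higher, Becn1 (1.097, SE 0.18, adjusted p = 0.00937; 16.8% of all genes were higher), and 1 lower, Atg7 (-1.01, SE 0.16, adjusted p = 0.00968; 1769 of 12680 genes were lower), so neither count exceeded its background. Over time in OSK 4 fell (24.0% of all genes did) and 1 rose (21.5%), Gabarapl1 (-0.28 per day, SE 0.05, adjusted p = 0.00134) and Sqstm1 (-0.20 per day, SE 0.05, adjusted p = 0.0122) being among those that fell, and without OSK day 0 1 of the 11 fell. In the omission fit 1 of 11 was lower without bFGF (7.77% of all genes) and 2 were higher without GSK3 inhibitors (9.97%).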
